A study of Bos taurus with 16 samples.

Results

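The 8 corpus luteum samples of day 17 and day 23 of pregnancy, 4 of each day, were selected by the day given in their labels from 16 samples in all, and the levels of 204 miRNA probes were compared between them. The corpus luteum is the gland that the ovulated follicle becomes. It makes the progesterone on which early pregnancy depends, and its cells include steroid-making luteal cells, a dense capillary bed, vessel wall cells, fibroblasts and blood-derived cells. In cattle the elongating embryo secretes interferon tau, which stops the uterus from releasing the pulses of prostaglandin that would end the life of the gland. Secretion is at its height around the earlier of these days, so the comparison follows luteal miRNAs after the peak of that signal. MicroRNAs are short RNAs that pair with messenger RNAs and lower their translation or stability, and many are cut from shared primary transcripts, so that neighbours in a cluster are not independent measurements.

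All groups were *Bos taurus* corpus luteum from cattle mated naturally at estrus and inseminated 12 hours later, kept in the study only when pregnancy was found. No non-pregnant group, breed or age was used here, and day 14 and day 20, with 4 samples each, served to estimate the spread and to place the 2 days in time. The labels give 1 sample per column without naming animals, so p-values measure the spread between these samples. MicroRNAs were counted on the NanoString platform, which counts colour-coded probes hybridised to RNA without amplification, in 2 runs. Replicates 1 and 2 of each day were in run 1 and replicates 3 and 4 in run 2, and run was held in every comparison.

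Totals over all probes were 269804, 249516, 411569 and 428598 normalized counts in replicates 1 to 4 of day 17 and 253542, 331164, 407448 and 536516 in those of day 23. Run 2 samples were the higher on both days. The difference in log2 totals was 0.16 (exact two-sided permutation within runs, p = 0.389, where the 36 arrangements cannot give less than 0.0556). let-7a-5p and let-7b-5p, the most abundant miRNAs of the gland, together made up 37.2% ± 4.31 of the total on day 17 (SD, n = 4) and 40.9% ± 3.83 on day 23 (exact permutation p = 0.278). Of the marker miRNAs, endothelial miR-126-3p ran from 7318 to 29256 normalized counts in the 8 samples, smooth muscle miR-145-5p from 3682 to 10060, erythrocyte miR-451a from 116 to 937, myeloid miR-223-3p from 28.6 to 79.1, leukocyte miR-142-3p from 147 to 600 and epithelial miR-141-3p from 37.1 to 87.3. None of the 5 skeletal muscle and liver miRNAs looked for is among the 204 probes.

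Samples also differed in the grain of their values. Within a sample, low values were separated by a constant spacing, taken here as the worth of 1 original count after the authors' scaling. Whether a wider spacing reflects depth, RNA input or the background step was not tested. On day 17 the spacing was 0.757, 0.665, 1.08 and 0.798 normalized counts in replicates 1 to 4, and on day 23 it was 0.687, 1.37, 1.32 and 2.92. Day 23 replicate 4 had the widest spacing of all 16 samples and the highest total, 536516. The log2 spacing was 0.77 higher on day 23 (exact permutation p = 0.111, smallest possible 0.0556), with 0.45 in run 1 and 1.08 in run 2. Within run 2, both replicates numbered 4 also stood apart from each other: their log2 values differed by 1.096 (root mean square over probes), against 0.537 between the replicates numbered 3. Results are therefore given also without both replicates numbered 4 and with the spacing as a covariate.

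No miRNA passed an adjusted p under 0.05, which is 0% of the 204 probes, and the smallest adjusted p by limma was 0.363. The standard error of a log2 difference had a median of 0.30, so the 95% interval of a typical probe was wider than a 2-fold range. At an unadjusted p under 0.05 there were 24 probes (11.8% of those tested), 14 higher (6.86%) and 10 lower (4.9%) on day 23. All 24 had the same direction in both runs, as did 134 of the 204. The 24 were chosen by a p over both runs, so their shared direction does not show replication between runs. The probes with lower values were led by the DLK1-DIO3 imprinted cluster and by miR-143-3p and miR-19a-3p. Those with higher values included miR-328-3p, miR-574-5p, miR-331-3p, the miR-193 and miR-365 probes and miR-181a-5p. Over all 204 probes, 112 were higher and 92 lower on day 23. The median of all probes was 0.04, and it was -0.11 when each sample was scaled to its total. Under that scaling 28 probes were under an unadjusted p of 0.05, only 7 of them higher and 21 lower, and with quantile normalization there were 11 higher and 14 lower.

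**Figure D1:**
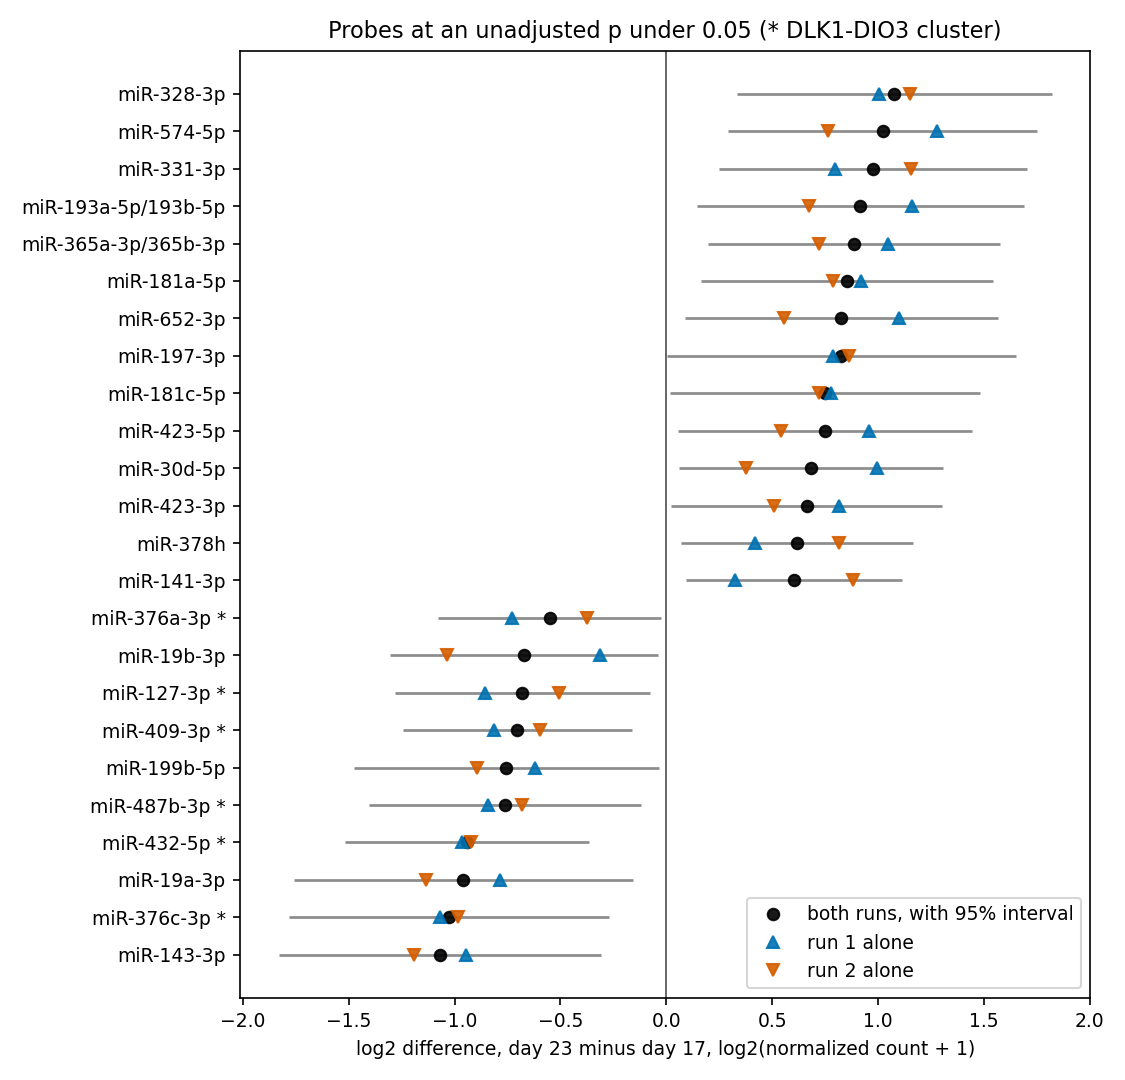
Log2 difference, day 23 minus day 17, on the log2(normalized count + 1) scale, for the 24 probes at an unadjusted p under 0.05. Circles with bars are the fit over both runs with its 95% interval, triangles are each run alone with 2 samples per day, and asterisks mark the DLK1-DIO3 cluster. Run 1 and run 2 lie on the same side of 0 for every probe, but the probes were chosen by the fit over both runs.

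The DLK1-DIO3 cluster is an imprinted region whose miRNA genes are expressed from the maternal chromosome, and its miRNAs are known from placenta, muscle and brain. All 17 measured members had lower values on day 23. Their median log2 difference was -0.47, against 0.04 over all probes. Lower values were found in all 17 members after median centring, quantile normalization and scaling to the total as well. Of all 204 probes, 92 were lower as deposited, and 90, 100 and 122 were lower after these 3 scalings in turn. Median centring and scaling to the total move all differences by nearly the same amount. The median of all probes went from 0.04 to 0.07 and to -0.11 under them. No member was near enough to 0 to be reversed by the former, and the latter only lowers values. Only quantile normalization could change members separately. None of the 17 passed the adjusted threshold. At an unadjusted p under 0.05, 6 of the 17 were lower, and the same was true of 4.9% of all probes. In 5 of the 17, the 4 day 23 samples did not overlap the 4 day 17 samples after centring within run, against 2.94% of all probes in that direction. This direction of the cluster was known from an earlier look at the same samples, and members of one transcript are not independent.

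miR-432-5p had the smallest p of all probes. It measured 132, 122, 206 and 146 normalized counts in day 17 replicates 1 to 4 and 54.0, 76.8, 119 and 69.8 in those of day 23. Every day 23 sample lay below every day 17 sample. The log2 difference was -0.94 (SE 0.28, adjusted p = 0.363), a 1.92-fold lower level. It came to -0.96 in run 1 and -0.92 in run 2.

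miR-409-3p, from the distal end of the measured cluster, had 285, 304, 538 and 386 on day 17 and 167, 167, 283 and 320 on day 23. Samples of the same run did not overlap, and the log2 difference was -0.70 (SE 0.26, adjusted p = 0.363). miR-127-3p lies antisense to the imprinted gene RTL1, whose transcript it cleaves. Its values were 689, 576, 880 and 557 on day 17 and 345, 351, 506 and 481 on day 23, all 4 of the later day lying below all 4 of the earlier one. The log2 difference was -0.68 (SE 0.29, adjusted p = 0.388).

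miR-487b-3p had 79.5, 71.8, 104 and 133 on day 17 and 40.9, 42.6, 79.4 and 66.9 on day 23. miR-495-3p had 238, 183, 404 and 285 on day 17 and 177, 155, 215 and 230 on day 23. Neither pair of days overlapped within a run. Their log2 differences were -0.76 (SE 0.31) for miR-487b-3p and -0.47 (SE 0.28) for miR-495-3p.

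The difference of miR-376c-3p, -1.03 (SE 0.36, adjusted p = 0.363), was the most negative in the cluster and rested more on 1 sample. It measured 106, 95.7, 87.6 and 313 on day 17 and 54.7, 41.2, 114 and 61.1 on day 23. Day 17 replicate 4 was far above the other samples of its day, day 23 replicate 3 lay above day 17 replicate 3, and the difference was -0.74 without day 17 replicate 4. The value with the spacing as a covariate was -0.37. miR-376a-3p, of the same family, had -0.55 (SE 0.25), and -0.30 with the covariate. The other members had -0.60 for miR-411-5p, -0.57 for miR-379-5p, -0.41 for miR-382-5p, -0.34 for miR-543, -0.31 for miR-370-3p, -0.27 for miR-485-3p, -0.25 and -0.22 for miR-299-5p and miR-299-3p, -0.18 for miR-656-3p and -0.16 for miR-433-3p. In bulk tissue, fewer cells that express the cluster and less of its RNA per cell cannot be told apart.

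The mean log2 value over the 17 members was 6.89 and 6.92 in the run 1 samples of day 17 and 6.24 and 6.36 in those of day 23. In run 2 it was 7.58 and 7.42 on day 17 and 7.09 and 7.14 on day 23. Both day 23 samples were thus below both day 17 samples in each run. Medians over the members were -0.73 in run 1 and -0.38 in run 2, -0.59 without both replicates numbered 4, and between -0.55 and -0.36 over the fits that each left out 1 sample. With the count spacing as a covariate the median was -0.49 and 16 of 17 members were lower, with miR-432-5p at -0.91 and miR-409-3p at -0.73.

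**Figure D2:**
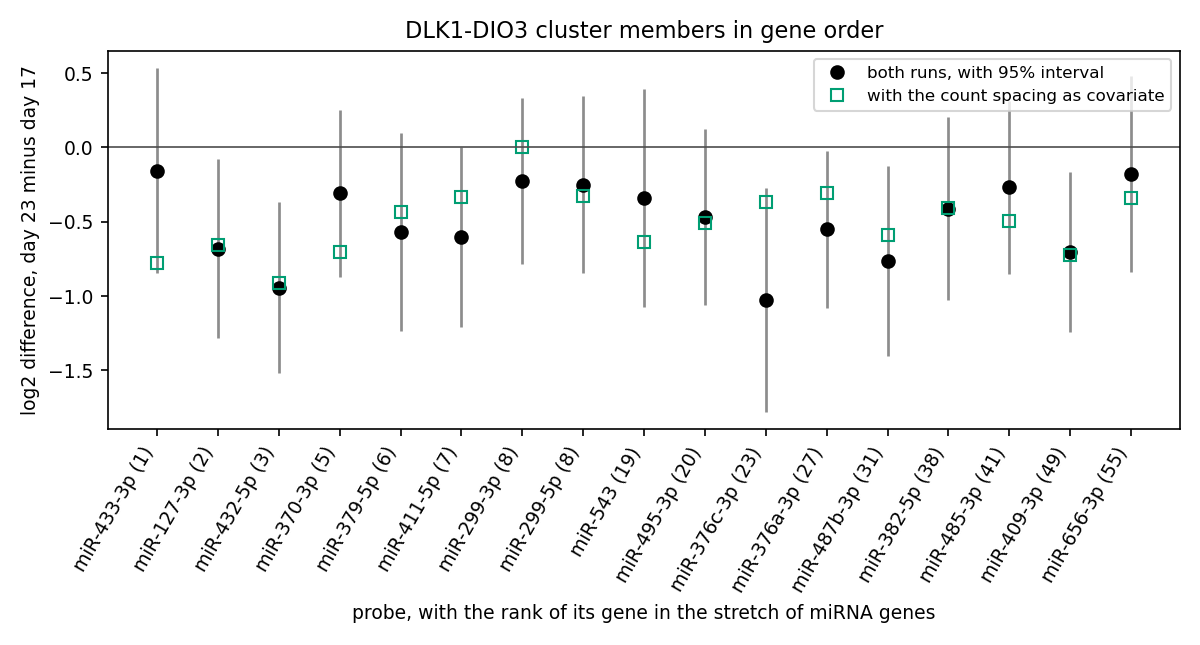
Log2 difference, day 23 minus day 17, for the 17 measured DLK1-DIO3 members in the order of their genes in the cattle assembly ARS-UCD2.0, with the rank among 55 neighbouring miRNA genes in brackets. Black circles with bars are the fit with its 95% interval and open squares the fit with the count spacing as a covariate; all circles lie below 0, and miR-432-5p and miR-409-3p have nearly the same value in both fits.

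By gene order, the 17 members came from a stretch of 55 neighbouring miRNA genes in ARS-UCD2.0. The most negative values were spread over the stretch, with miR-432-5p at rank 3, miR-376c-3p at 23, miR-487b-3p at 31 and miR-409-3p at 49. Some of the next were neighbours: miR-127-3p, at -0.68, was at rank 2 beside miR-432-5p, and miR-379-5p and miR-411-5p were at ranks 6 and 7. miR-433-3p and miR-656-3p, nearest to 0, were the first and the last measured. In time, the median member differed by -0.06 from day 14 to day 17, by -0.12 from day 17 to day 20 and by -0.43 from day 20 to day 23. These steps share samples. The test of whether the later step from day 20 to 23 differed from the step before it called 0 of 204 probes (0%) by limma, with 1 (0.49%) at an unadjusted p under 0.05. For miR-432-5p that contrast was -0.90 (SE 0.48, adjusted p = 0.993). The others with the smallest p were miR-4516, at 2.43 (SE 1.08), and the probe of miR-4454 and miR-7975, at -1.46, with the same adjusted p.

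Vessel wall and stromal miRNAs, those of smooth muscle, pericytes and fibroblasts, had lower values in 6 of 7 measured members, with a median of -0.30 that was -0.14 without both replicates numbered 4 and -0.12 with the spacing as a covariate. miR-143-3p, a smooth muscle miRNA, measured 637, 707, 938 and 2846 normalized counts on day 17 and 443, 273, 1059 and 481 on day 23. Day 17 replicate 4 was the highest of the 8 by far, and the 2 days overlapped in run 2. The log2 difference was -1.07 (SE 0.37, adjusted p = 0.363), -0.75 without day 17 replicate 4 and -0.22 with the spacing as a covariate. miR-145-5p, which is made from the same transcript as miR-143-3p, had -0.07 (SE 0.24).

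miR-199b-5p, of fibroblasts, had 319, 392, 348 and 856 on day 17 and 210, 252, 369 and 233 on day 23, with day 17 replicate 4 again the highest. The difference was -0.76 (SE 0.35, adjusted p = 0.398), -0.38 without both replicates numbered 4 and -0.23 with the spacing as a covariate. The abundant members had -0.30 for the joint probe for miR-199a-3p/miR-199b-3p and 0.03 for miR-214-3p, which became -0.07 after quantile normalization and -0.13 when scaled to the total. The summed level of the list ran from 12126 to 26917 on day 17, where replicate 4 was the highest, and from 10342 to 19475 on day 23.

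For miR-143-3p the change after day 17 was also set against that before it, as the difference of the steps from day 17 to 23 and from day 14 to 17. That contrast was -1.64 (SE 0.63, adjusted p = 0.904), since its mean was 841 on day 14, 1282 on day 17, 883 on day 20 and 564 on day 23. Of all probes, 0 passed this test by limma (0%), and 6 (2.94%) had an unadjusted p under 0.05. The others with the smallest p were miR-577, with 1.24 (SE 0.43, adjusted p = 0.904), which has no bovine gene of its number, and miR-141-3p, with 0.91 (SE 0.43, adjusted p = 0.904).

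miR-19a-3p and miR-19b-3p belong to the miR-17 to miR-92 clusters, which promote cell division. miR-19a-3p had 58.3, 42.5, 44.4 and 169 on day 17 and 34.7, 23.4, 74.2 and 20.3 on day 23. Its sister miR-19b-3p had 160, 127, 202 and 509 on day 17 and 117, 112, 204 and 119 on day 23. In both, day 17 replicate 4 was far above the rest and the days overlapped in run 2. The log2 differences were -0.96 (SE 0.38, adjusted p = 0.363) and -0.67 (SE 0.30, adjusted p = 0.398), -0.57 and -0.36 without day 17 replicate 4, and -0.10 and -0.13 with the spacing as a covariate. Of 9 measured probes of these clusters 6 were lower, with a median of -0.12. miR-92a-3p, named after its values were seen, had the highest difference of the 9, with 90.9, 207, 707 and 342 on day 17 and 192, 351, 387 and 1040 on day 23. Its days overlapped in both runs, and the difference was 0.64 (SE 0.37, adjusted p = 0.502), or 0.03 with the spacing as a covariate. Among the most abundant, the probe of miR-20a-5p and miR-20b-5p had -0.17, miR-93-5p -0.10 and miR-25-3p 0.13, the last -0.02 when scaled to the total.

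Endothelial and angiogenic miRNAs had a median of -0.01 over 9 probes, 4 higher and 5 lower, which was 0.02 after median centring. miR-126-3p, which guards vessel integrity, had 13917, 8951, 14112 and 29256 on day 17 and 7579, 7318, 16446 and 12438 on day 23. The 2 days did not overlap in run 1 and overlapped in run 2, and the difference was -0.55 (SE 0.31). miR-23b-3p did not overlap between days within either run, with 2039, 1812, 3838 and 4475 on day 17 and 2427, 2805, 4853 and 4898 on day 23. Its difference of 0.34 had an SE of 0.25 and an unadjusted p of 0.189. In the miR-23, miR-24 and miR-27 clusters as a whole, 4 of 5 probes were higher (median 0.18), with miR-27b-3p at 0.41 and miR-23a-3p at 0.17.

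Blood cell miRNAs had lower values in 3 of 4 measured members (median -0.21). That median was 0.04 in run 1 and -0.49 in run 2, and lay between -0.44 and -0.05 when 1 sample was left out, the latter without day 23 replicate 4. miR-451a had -0.15, miR-142-3p -0.45 and miR-150-5p 0.06, the last turning to -0.09 when scaled to the total. Their summed level ran from 615 to 2121 on day 17 and from 808 to 1829 on day 23, none was at 0, and the highest sample was day 17 replicate 4. That sample also carried the highest miR-143-3p, miR-19a-3p, miR-376c-3p and miR-126-3p of all 8, and without it the difference of miR-126-3p was -0.39. The share of blood or vessel cells in each gland was not tested.

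MicroRNAs of inflammation and of the interferon response showed no common direction. Of 8 measured, 4 were higher and 4 lower (median -0.03), and 0 were under an unadjusted p of 0.05, against 11.8% of all probes. miR-155-5p, induced by interferon in macrophages, had 447, 317, 443 and 527 on day 17 and 355, 274, 438 and 370 on day 23. The days overlapped in run 1, and the difference was -0.27 (SE 0.27, adjusted p = 0.731). miR-21-5p, which rises in many inflamed tissues and protects granulosa cells from death in mice, had -0.53 (SE 0.32) and day 17 replicate 4 at 6836 against 2111 to 2666 in the other 3. The abundant miR-125a-5p had -0.08 and miR-29b-3p -0.24.

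Gonadotropin-responsive and steroidogenic miRNAs were higher in 4 of 6 measured members (median 0.17). miR-132-3p, which luteinising hormone induces in mouse granulosa cells, had 0.10 (-0.06 when scaled to the total), with 0.71 in run 1 and -0.52 in run 2. miR-34a-5p had 0.49. miR-378h, of a family that targets aromatase in the pig, had 52.3, 49.2, 36.9 and 34.4 on day 17 and 50.5, 91.9, 53.1 and 75.7 on day 23. Its difference was 0.62 (SE 0.26, adjusted p = 0.388), or 0.18 with the spacing as a covariate, and the days overlapped in run 1. miR-378h has a bovine gene of its number under another letter.

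In 13 of the 14 probes with higher values, day 23 replicate 4 was the highest of the day 23 samples. Its mean log2 value over all probes was also the highest of that day, 8.28 against 7.79, 7.92 and 8.10 in replicates 1 to 3. The share of all probes with this pattern was not counted, so it cannot be called particular to the 14. The same 14 had a median log2 difference of 0.83, which was 0.21 with the count spacing as a covariate, and the slope on spacing was above 0 in all 14. That slope was below 0 in 9 of the 10 lower probes. The 14 and the 10 were chosen by their day difference, and the signs of all 204 slopes were not counted. Over all 204 probes, 42 slopes had an unadjusted p under 0.05 by limma, 32 of them above 0. After adjustment 4 slopes passed, all 4 above 0. That covariate was added after the data were seen, and its part cannot be told apart fully from the day, since the spacing was itself wider on day 23. Taken as the worth of 1 count, the spacing also enters every normalized value of its sample. The covariate is therefore not a measure independent of the values fitted. Among the 10 lower probes, the 6 of the DLK1-DIO3 cluster had a median of -0.62 with the covariate and the other 4 a median of -0.18. With the covariate no probe was called by limma for the day difference, and 6 had an unadjusted p under 0.05, all lower. Only 2 of these, miR-409-3p and miR-432-5p, were among the 24 probes of the main fit. The medians above describe probes chosen by their p in this comparison.

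**Figure D3:**
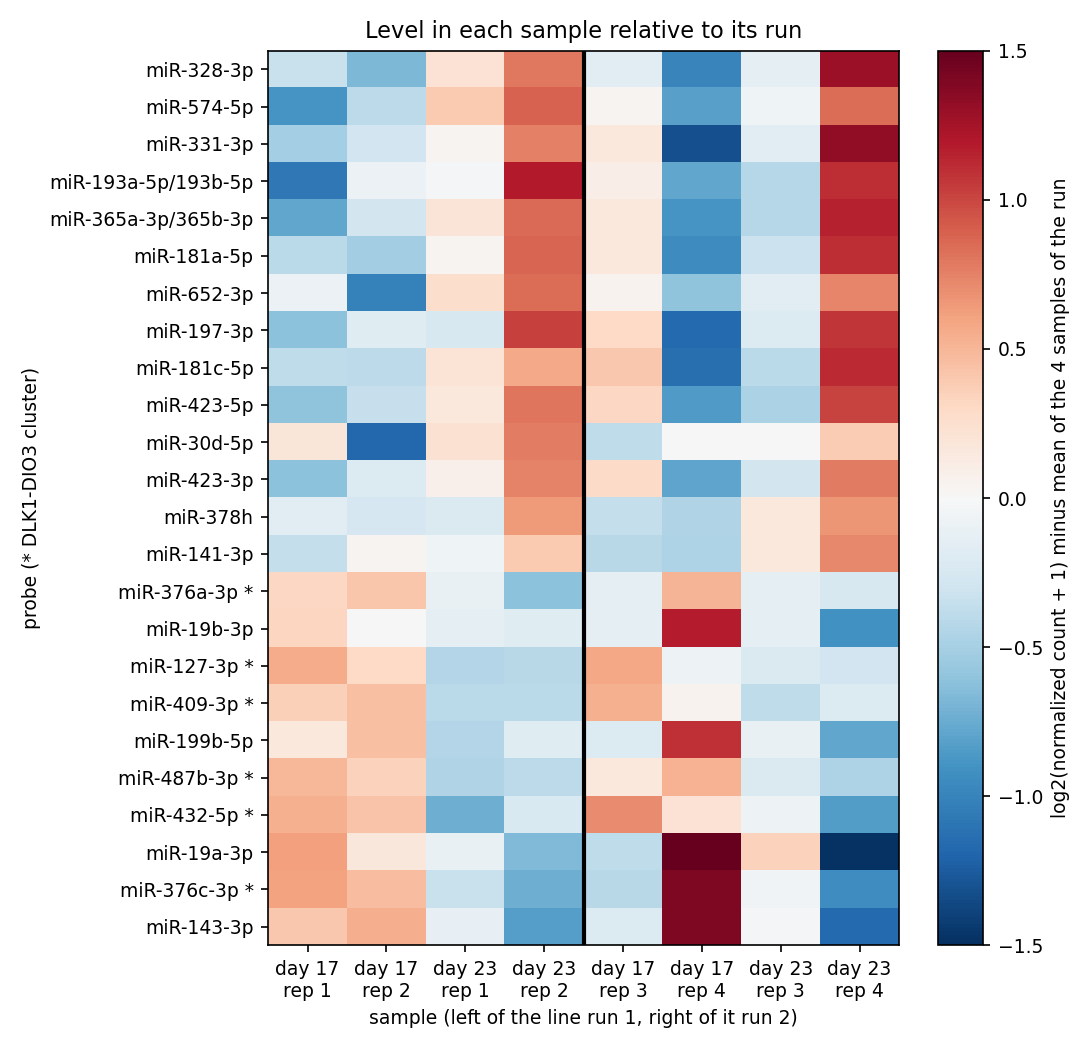
Log2(normalized count + 1) of the 24 probes in each sample, as the difference from the mean of the 4 samples of its run, with red above and blue below that mean; columns left of the line are run 1 and right of it run 2, and rep is the replicate number. Day 23 replicates 2 and 4 are red throughout the upper block of 14 probes, and day 17 replicate 4 is the darkest red of its row for miR-143-3p, miR-376c-3p and miR-19a-3p.

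**Figure D4:**
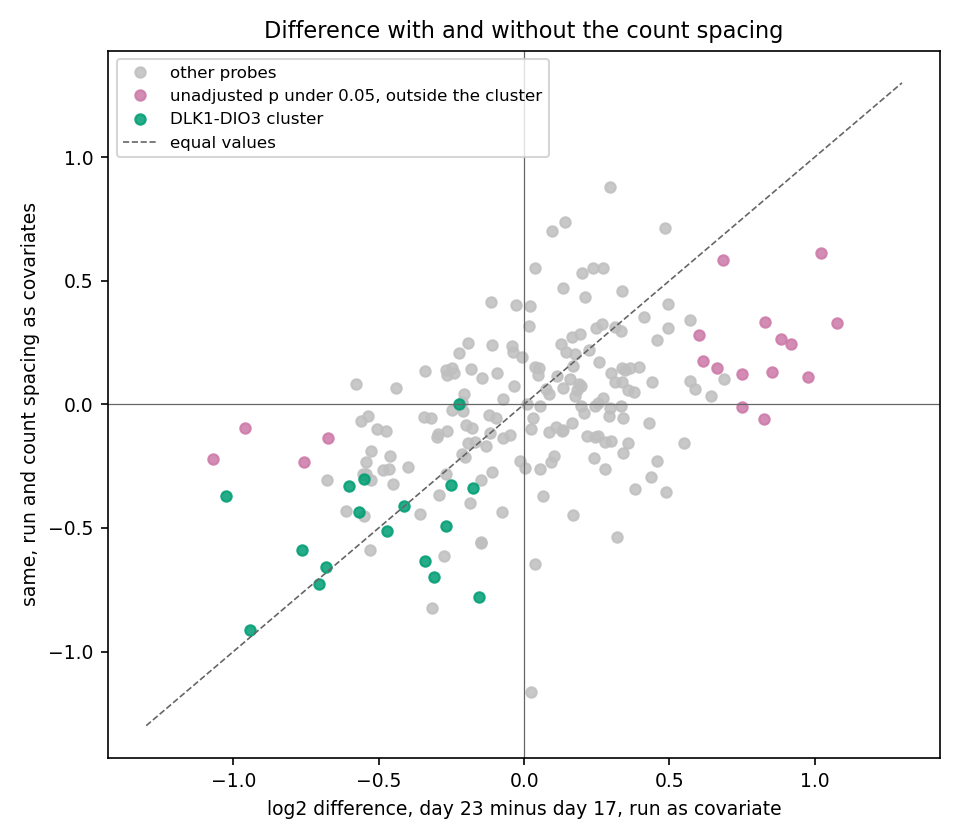
Log2 difference, day 23 minus day 17, with run as the covariate (horizontal axis) against the same with run and count spacing as covariates (vertical axis), 1 point per probe over 204 probes. Green points of the DLK1-DIO3 cluster lie on both sides of the dashed line of equal values, 16 of 17 below 0 on the vertical axis, and the 14 pink points on the right all lie below that line, with a median of 0.21 against 0.83.

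miR-181a-5p, a regulator of lymphocyte signalling, was the most abundant of the 14. It had 6515, 5984, 13130 and 6113 normalized counts on day 17 and 8856, 15765, 9389 and 25404 on day 23. The days were apart in run 1, while in run 2 day 17 replicate 3 exceeded day 23 replicate 3. The difference was 0.85 (SE 0.33, adjusted p = 0.363), a 1.81-fold higher level, and 0.13 with the spacing as a covariate. miR-181c-5p had 0.75 (SE 0.35, adjusted p = 0.398) and the probe of miR-181b-5p and miR-181d-5p 0.10, which was -0.05 when scaled to the total. All 3 measured family members were higher in the values as deposited, with a median of 0.75 that was 0.25 without both replicates numbered 4 and -0.01 with the spacing as a covariate.

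The joint probe for miR-365a-3p/miR-365b-3p had 1228, 1745, 3701 and 1788 on day 17 and 2411, 3799, 2453 and 7348 on day 23. The probe shared by miR-193a-5p and miR-193b-5p, whose genes lie beside those of miR-365 in mammals, had 147, 291, 949 and 517 on day 17 and 304, 705, 658 and 1903 on day 23. In both, the days were apart in run 1 and day 17 replicate 3 lay above day 23 replicate 3 in run 2. Differences were 0.89 (SE 0.33, adjusted p = 0.363) and 0.92 (SE 0.37, adjusted p = 0.363). They came to 0.26 and 0.24 with the spacing as a covariate. The opposite arm of that hairpin, miR-193a-3p, was near the low end of the table and had 0.11, or -0.05 when scaled to the total.

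miR-331-3p, miR-328-3p, miR-197-3p and miR-652-3p had been grouped in an earlier look at these data because their values were high late, so their common direction is not independent evidence. miR-331-3p had 593, 689, 1056 and 380 on day 17 and 866, 1424, 838 and 2383 on day 23. Its days were apart in run 1 and overlapped in run 2. miR-328-3p had 29.6, 23.3, 65.0 and 36.04 on day 17 and 43.7, 65.9, 66.3 and 178 on day 23. The days of miR-328-3p did not overlap within either run, which held for 1.47% of all probes in that direction, although the run 2 values of 65.0 and 66.3 lay close together. The differences were 0.98 (SE 0.35) for miR-331-3p and 1.08 (SE 0.36) for miR-328-3p, a 2.11-fold higher level, both with adjusted p = 0.363. With the spacing as a covariate these were 0.11 and 0.33. miR-652-3p had 0.83 (SE 0.36, adjusted p = 0.388) and miR-197-3p 0.83 (SE 0.40, adjusted p = 0.404), which were 0.33 and -0.06 with the covariate. Medians of the 4 were 0.27 from day 17 to day 20 and 0.75 from day 20 to day 23.

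**Figure D5:**
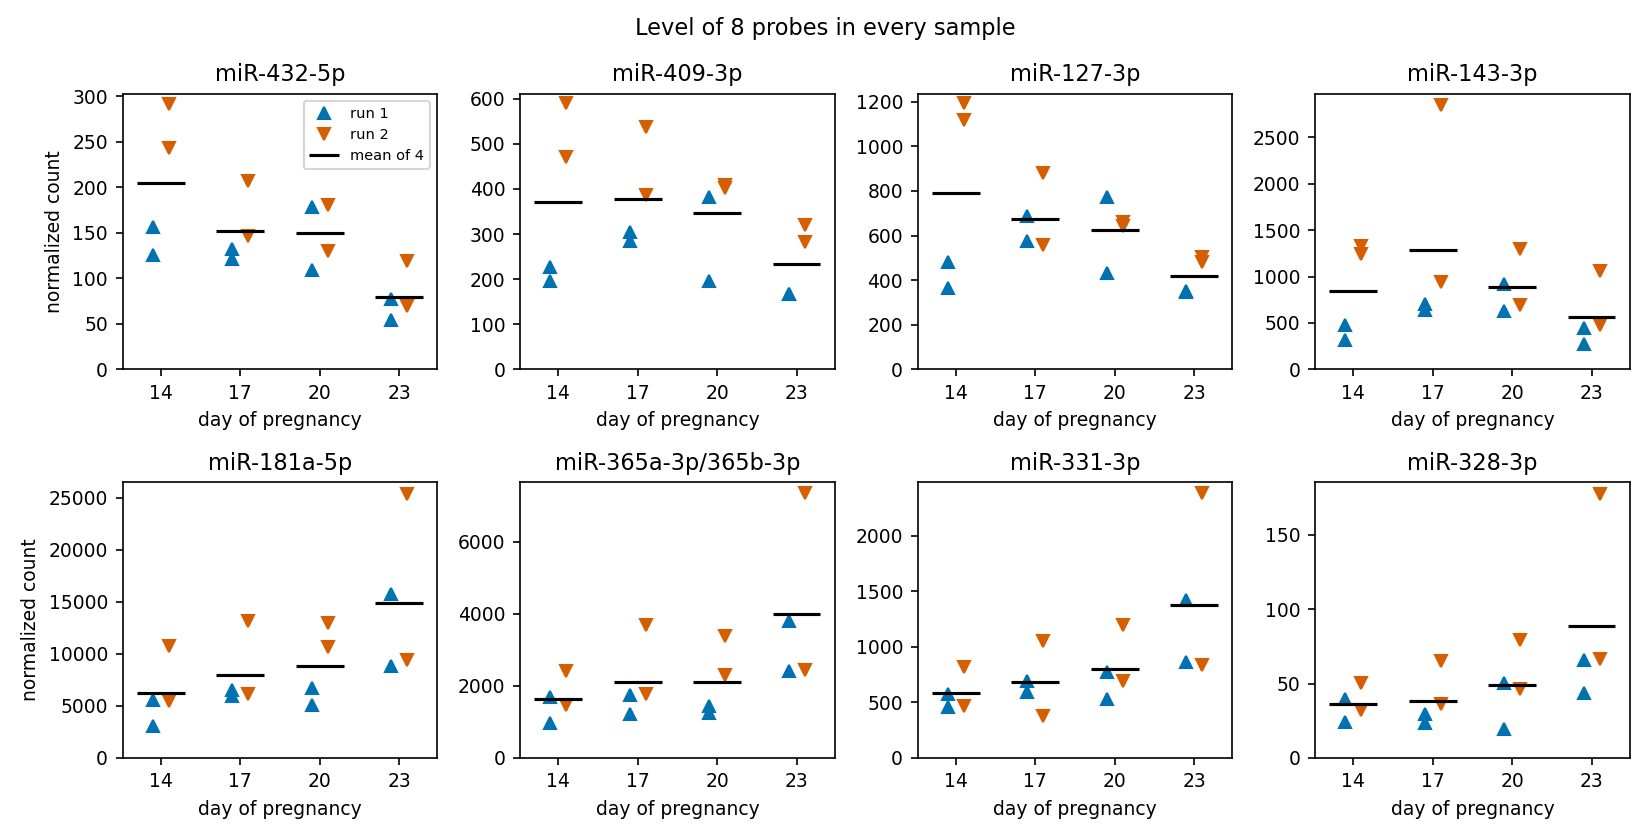
Normalized counts of 8 probes in all 16 samples by day of pregnancy, with upward triangles for run 1, downward triangles for run 2 and a bar for the mean of the 4 samples of a day. miR-432-5p is lowest on day 23 in both runs, and the highest points of miR-181a-5p, the miR-365 probe, miR-331-3p and miR-328-3p are all day 23 replicate 4, of run 2.

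Both arms of miR-574 and of miR-423 were measured, and all 4 probes had higher values, with a median of 0.72 that was 0.37 without both replicates numbered 4 and 0.13 with the spacing as a covariate. miR-574-5p had 117, 166, 614 and 339 on day 17 and 287, 403, 567 and 1060 on day 23. The days were apart in run 1 and overlapped in run 2. The difference was 1.02 (SE 0.35, adjusted p = 0.363), and 0.61 with the spacing as a covariate. miR-574-3p had 0.69 (SE 0.36, adjusted p = 0.496), miR-423-5p 0.75 (SE 0.33, adjusted p = 0.398) and miR-423-3p 0.66 (SE 0.31, adjusted p = 0.398). With the covariate these 3 had 0.10, 0.12 and 0.15.

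miR-30d-5p had 251, 97.7, 380 and 497 on day 17 and 260, 377, 491 and 647 on day 23, a difference of 0.68 (SE 0.30, adjusted p = 0.396) that was 0.58 with the covariate and 0.41 without day 17 replicate 2, where its unadjusted p was no longer under 0.05. The days were apart in run 1 and overlapped slightly in run 2, and day 17 replicate 2 was the lowest of all 8. Of 7 measured miR-30 probes 4 were higher (median 0.02, and -0.14 when scaled to the total), with miR-30a-5p at 0.49 and miR-30b-5p at 0.02, the last -0.14 when scaled to the total. miR-141-3p, an epithelial miRNA and the only one measured of its family, had 37.1, 49.2, 39.0 and 37.6 on day 17 and 45.7, 63.1, 58.4 and 87.3 on day 23. All values were low, the days overlapped in run 1, and the difference was 0.60 (SE 0.25, adjusted p = 0.363), or 0.28 with the covariate.

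Other families showed smaller differences. The let-7 family had 5 of 9 probes higher (median 0.26, and 0.00 after quantile normalization), with let-7a-5p at 0.27, let-7b-5p at 0.33, let-7c-5p at -0.05 and let-7d-5p at 0.57 (SE 0.28, adjusted p = 0.404). let-7a-5p and let-7b-5p were the most abundant probes, in that order, in every sample. Quantile normalization therefore sets both differences to 0, and the median of 0.00 is such a fixed value. The miR-99/100 and miR-125 family had 2 of 5 higher (median -0.08), with miR-125b-5p at 0.20 and miR-99a-5p at -0.18. The seed group of miR-15 and miR-16, which slows the cell cycle, had 5 of 8 higher (median 0.15, and -0.01 when scaled to the total), with miR-15b-5p at 0.38 and miR-16-5p at -0.26. miR-107 of that group did not overlap between days within a run, with 1475, 1108, 2063 and 2089 on day 17 and 1555, 1653, 2568 and 2701 on day 23. Its difference was 0.33 (SE 0.22, adjusted p = 0.563). miR-32-5p was the only non-overlapping lower probe outside the DLK1-DIO3 cluster, with 53.8, 59.2, 59.6 and 84.7 on day 17, 51.2, 39.8, 49.2 and 40.7 on day 23, and a difference of -0.49 (SE 0.33).

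The X-linked cluster had 4 of 6 lower (median -0.26, but 0.16 in run 1 and -0.63 in run 2), with miR-503-5p at 0.16 (-0.01 after quantile normalization), miR-450a-5p at -0.32 and miR-424-5p at -0.19. The miR-29 family, which represses collagen genes, had 0.02 for miR-29a-3p (-0.14 when scaled to the total) and -0.11 for miR-29c-3p (0.01 after quantile normalization), and its median of -0.11 was 0.30 in run 1 and -0.71 in run 2. A test of whether the day difference itself differed between runs called 0 probes (0%) by limma, with 5 (2.45%) at an unadjusted p under 0.05. The smallest p were those of miR-425-5p, with a run 2 minus run 1 difference of -1.32 (SE 0.55), miR-1307-3p with 1.45 (SE 0.61) and miR-1270 with 1.21 (SE 0.51), each with adjusted p = 0.987. All 3 were at low counts.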

How the data were processed

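MicroRNAs of bovine corpus luteum were profiled on NanoString, and RNA was isolated with the Exiqon miRcury tissue kit, per the labels' protocols. The deposited values are normalized counts, a signal per probe and column as the authors scaled it; how they were normalized, with which software and background step, is not given in the sources used here. Values below 300 were whole multiples of the column's spacing, within 0.1 of a step, in 3 of 16 columns; in the other 13 at most 67% were, and at least 97.4% only after a shift particular to the column. Original counts were therefore not recovered, and no count model was used. Values were taken as log2(value + 1), and all 204 probes passed a minimum of 20 in at least 4 samples. limma 3.58.1 in R 4.3.3 fitted day and run over all 16 samples (11 residual degrees of freedom) with a mean-variance trend and Benjamini-Hochberg adjustment over 204 probes. The code of the fit was checked on simulated data, with noise independent between probes and samples. Such data hold no shift shared by the probes of a sample, so they do not give the error rates of the fit here. Totals and shares were compared by exact permutation within runs.

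Replicate numbers are those of the labels. Samples of the same number deviated together from their day means (r = 0.62, 0.69, 0.19 and 0.25 for replicates 1 to 4), as run also pairs them, and after day and run the values were 0.03 and -0.55.

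Named miRNAs were those at an unadjusted p under 0.05, those whose days did not overlap after centring within run, the 3 with the smallest p in each contrast of run or time, all DLK1-DIO3 members, the 3 most abundant of each list, the 10 most abundant probes, and opposite arms of the first kinds. These came to 83. The 28 named by their unadjusted p or by lack of overlap are those followed over the alternatives. Probes sharing a seed were not looked for, since no sequences were used here. The members and the 21 lists were chosen with earlier results of these data known. Gene names and order come from RefSeq on ARS-UCD2.0, where 155 probes matched a bovine gene of the same name, 11 a bovine gene whose number matched but whose letter did not, and 38 none. Of the 204 probes, 9 name several miRNAs. Alternatives were the scaling, the added constant, the minimum, the run term, a replicate block, leaving out samples, and, added after the data were seen, the count spacing as a covariate and leaving out replicate 4 of both days.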

Additional observations from a re-analysis of the deposited data

Results flagged for a closer look

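In all, 170 groups of 4 samples of 1 day were examined for a single far value by Dixon's test on normalized counts without logs. Of these, 19 had one, always the highest value. The rate of about 1 in 20 groups by chance holds for normally distributed values. Counts without logs need not be so distributed and each group of 4 spans both runs, so the 19 cannot be set against that rate. Day 17 replicate 4 held 9 of the 19, as the highest value of its day. These were miR-143-3p at 2846 normalized counts (others at most 938), miR-199b-5p at 855.8, miR-19a-3p at 168.5, miR-376c-3p at 313, miR-21-5p at 6836, miR-29c-3p at 201.3, miR-411-5p at 411.2, miR-424-5p at 3886 and miR-99a-5p at 3579. Day 17 replicate 3 was highest for miR-181a-5p at 13130, miR-197-3p at 420.1 and miR-543 at 252.8, and day 17 replicate 2 for miR-141-3p at 49.18.

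On day 23, replicate 4 was highest for miR-328-3p at 177.6 (others at most 66.3), miR-34a-5p at 1573 and miR-543 at 195.1. Replicate 3 was highest for miR-19b-3p at 204.4 and for the probe of miR-4454 and miR-7975 at 24031, and replicate 1 for miR-525-3p at 166.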

How the results depend on the processing

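No probe passed an adjusted p under 0.05 under any alternative run, while the count at an unadjusted p under 0.05, 24 probes, depended on samples and run. It was 4 with no run term, 6 with the count spacing as a covariate and 8 without replicate 4 of both days. For the difference within run 1 it was 12 and for that within run 2 it was 11, both with the spread estimated over all 16 samples. Leaving out 1 sample gave between 7 and 38: 7 without day 23 replicate 4, 11 without day 17 replicate 4, 12 without day 23 replicate 2 and 38 without day 23 replicate 3. Of 19 lists, 9 had a median below 0, against 5 without replicate 4 of both days, 5 in run 1 alone, and between 4 and 11 when 1 sample was left out, the lowest being without day 17 replicate 4. With the spacing as a covariate, miR-181c-5p was -0.01 and miR-197-3p -0.06, both the reverse of their sign. The other 26 of the 28 miRNAs followed kept their direction in those of the 16 alternatives that held them. A minimum of 100 and the subset with a bovine gene of the same name left some out. All 28 kept it in the 16 fits without 1 sample. Much of this was fixed in advance, since every day was balanced over the runs. The run term, the replicate block, the variance settings, the lack of a minimum and the use of only days 17 and 23 could not change a difference. Nor could leaving out a sample of day 14 or day 20. Median centring and scaling to the total could only move all differences by nearly the same amount. The replicate block also gave 24 probes at an unadjusted p under 0.05, 15 higher and 9 lower, of which 22 were shared (miR-181c-5p and miR-376a-3p were not), and no adjusted call. The cause of these shifts was not tested. Depth itself is not known, and the count spacing was widest in day 23 replicate 4, and 4 samples a day limit the precision.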

Other observations

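Of 16 hairpins with both arms measured, 12 had the same sign of difference in both, and miR-151a, miR-30a, miR-30e and miR-542 did not. For miR-197 the differences were 0.83 in the 3p arm and 0.15 in miR-197-5p, the last -0.01 when scaled to the total.

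The 38 probes whose miRNA has no bovine gene of that number had higher values in 28 cases, with a median of 0.19 that was -0.10 in run 1, 0.49 in run 2 and -0.10 with the count spacing as a covariate. In the 155 with a bovine gene of the same name, 76 were higher and 79 lower. Of the 5 probes of a miRNA cluster known only from primates, miR-518b had -0.27, miR-522-3p 0.57 and miR-525-3p -0.21. miR-522-3p had 133, 308, 23.9 and 12.1 normalized counts on day 17 and 242, 251, 26.8 and 37.8 on day 23, so that its level followed the run more than the day. What these probes detect in cattle was not tested.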
